A study of Arabidopsis thaliana with 27 samples.

Results

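The tau (GSTU) and phi (GSTF) classes are the large plant classes of glutathione transferases. They are described here by 41 genes, GSTU1 to GSTU28 and GSTF2 to GSTF14, taken by gene identifier from the 34262 genes of the table. All 41 had a row, 28 of them tau and 13 phi. Glutathione transferases join the tripeptide glutathione to reactive molecules or carry such molecules bound. In plants the conjugates are moved into the vacuole by ABCC transporters and taken apart by peptidases. Tau and phi genes are known for their rise after herbicides, reactive electrophiles and other stress. In Arabidopsis that induction depends in part on TGA class II factors and their partner SCL14, which act at as-1-like promoter elements with the core TGACG.

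RNA was sequenced from roots of Arabidopsis thaliana seedlings of 3 lines, grown for 10 days in liquid medium. Col is Col-0, the wild type. The transgene of ICT1-2 was built in the submitting laboratory, while ICT1-8098 comes from a FOX overexpression collection. Both lines are homozygous and labelled as overexpressing S30, a protein of the small ribosomal subunit, under what the labels call the s35 promoter. Indole-3-carbinol (I3C) forms in crucifers when indole glucosinolates are broken down, and it was added to the medium for 2 h at 200 or 400 µM. Each treatment used 20 seedlings, and DMSO, the solvent, was the control (NT). The groups were Col_NT, Col_200, Col_400, ICT1-2_NT, ICT1-2_200, ICT1-2_400, ICT1-8098_NT, ICT1-8098_200 and Col_w, in which every leaf of Col-0 plants was wounded 3 times and roots were taken 8 h later. ICT1-2_NT had values in 2 libraries and the 8 other groups in 3. The library labelled replicate 5 of ICT1-2_NT is not analysed here. The labels do not say whether replicates are separate cultures, and p-values therefore rest on a spread between libraries that may be technical.

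The 26 libraries held 9503924 to 19433428 reads on genes, with a median of 14169035.5. All 5 endodermis and all 5 root hair markers had reads in all groups. The root hair markers summed to 615 to 1051 normalized counts per library in Col_NT, 211 to 731 in Col_200 and 430 to 488 in Col_400, to 692 to 882 in ICT1-2_NT, 268 to 626 in ICT1-2_200 and 354 to 395 in ICT1-2_400, to 628 to 691 in ICT1-8098_NT and 278 to 765 in ICT1-8098_200, and to 779 to 1457 in Col_w. The endodermis markers summed to 1402 to 2302 in Col_NT, 711 to 1759 in Col_200, 1077 to 1344 in Col_400, and 871 to 1582 over the other groups. A list of 10 genes for photosynthesis, which mark green shoot tissue, summed to 1482.5 to 3327 normalized counts per library in Col_NT, 1773 to 6982 in Col_200, 1938 to 3174 in Col_400, 1862 to 2034 in ICT1-2_NT, 354 to 446 in ICT1-2_200, 392 to 656 in ICT1-2_400, 636 to 877 in ICT1-8098_NT, 386 to 413 in ICT1-8098_200 and 1473 to 5306 in Col_w. Of the 10 genes, 1 was at 0 in ICT1-8098_200 and 0 were in the other groups. Of the 3 S30 genes, AT2G19750 rose in ICT1-8098_NT, to 5743 ± 821 normalized counts (SD, n = 3) from 2659 ± 728 in Col_NT (log2 change 1.14, adjusted p = 0.000649). None passed in the libraries labelled ICT1-2_NT, where AT2G19750 stood at 2429 ± 540 (SD, n = 2), with adjusted p-values from 0.319 to 0.833. Levels below are normalized counts, which are counts divided by a size factor for the depth of the library. A gene is said to have passed at an adjusted p under 0.05 in limma, Benjamini-Hochberg over all 21180 tested genes. In bulk roots, a change in the cells that express a gene and a change in RNA per cell cannot be told apart.

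Most of these genes lie in rows. With at most 20 kb between neighbours of a class, 29 of the 41 fell into 9 tandem clusters, 7 of tau and 2 of phi genes. Positions here are those of the deposited table, which for all 41 genes are also the positions in TAIR10.1. The row with the most genes, GSTU1 to GSTU7, spans chromosome 2, 12617936 to 12632538. GSTU19 to GSTU23 span chromosome 1, 29467412 to 29488007, and GSTU24 to GSTU26 span chromosome 1, 5869543 to 5876620. GSTF4 to GSTF7 (chromosome 1, 658578 to 666471) and GSTF9 with GSTF10 (chromosome 2, 13138882 to 13142676) are the phi rows. GSTU11 with GSTU12, GSTU13 with GSTU14, GSTU15 with GSTU16 and GSTU17 with GSTU18 are pairs on chromosome 1. Coding sequences had 94.5% identity between GSTF2 and GSTF3 (which are on different chromosomes), 94.3% between GSTF6 and GSTF7 and at most 85.6% between any other members. The sources used here do not say how reads that match several genes were counted, and the split between GSTF2 and GSTF3 and between GSTF6 and GSTF7 is uncertain.

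The library kit did not mark strand, so reads from bases that a member shares with a gene on the other strand cannot be told apart by strand. That overlap covered 70.4% of the exon bases of GSTU2, 68.9% of GSTU7, 60.5% of GSTF2, 29.9% of GSTU6, 29.3% of GSTF4 and 100% of GSTF11, and their values are uncertain. Smaller shares were 9.85% of GSTF12 and 1.06% of GSTF10. GSTU10 shared 9.54% of its exon bases with genes on both strands, and GSTF8 shared 9.14% with a gene on its own strand. GSTF11 was at 0 in all 26 libraries. GSTU15 reached at most 3.73 and GSTF5 at most 2.47 normalized counts in a library. These 3 genes were not tested. The other 38 (27 tau, 11 phi) reached 10 normalized counts in at least 3 libraries, and 32 did so in all 26. GSTU2, GSTU3, GSTU11, GSTU16, GSTU21 and GSTF12 reached that level in part of the libraries. GSTU3 did so in 3 of the 11 libraries without I3C and in all 15 with it.

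Bases upstream of 5 members are shown because they set neighbours of unlike response side by side. GSTU25 and GSTU26 are adjacent, as are GSTU19 and GSTU20, and in each pair the first gene rose with I3C in Col-0 and the other fell at 400 µM or at both doses. GSTU1 is 1 gene of the row on chromosome 2 and does not stand for its other genes. Each sequence is the 300 bases before the annotated start, read 5′ to 3′ on the strand of the gene from RefSeq TAIR10.1, and capitals mark TGACG or its reverse complement CGTCA. These 5 were chosen after their values and matches were seen, among windows that hold no part of another gene. The windows are GSTU25 at chr1:5871724-5872023, plus strand, GSTU26 at chr1:5874995-5875294, plus strand, GSTU19 at chr1:29488008-29488307, minus strand, GSTU20 at chr1:29485390-29485689, minus strand, and GSTU1 at chr2:12632539-12632838, minus strand.
GSTU25: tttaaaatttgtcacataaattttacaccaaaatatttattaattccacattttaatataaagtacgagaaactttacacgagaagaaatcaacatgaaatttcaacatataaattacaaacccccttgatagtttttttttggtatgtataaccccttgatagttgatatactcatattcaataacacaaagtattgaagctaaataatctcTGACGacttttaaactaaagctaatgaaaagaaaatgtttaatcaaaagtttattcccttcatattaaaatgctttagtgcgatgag
GSTU26: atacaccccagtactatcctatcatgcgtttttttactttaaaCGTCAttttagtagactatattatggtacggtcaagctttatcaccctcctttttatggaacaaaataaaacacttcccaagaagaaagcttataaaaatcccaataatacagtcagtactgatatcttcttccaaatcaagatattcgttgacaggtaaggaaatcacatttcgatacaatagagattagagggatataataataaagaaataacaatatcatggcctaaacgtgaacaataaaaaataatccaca
GSTU19: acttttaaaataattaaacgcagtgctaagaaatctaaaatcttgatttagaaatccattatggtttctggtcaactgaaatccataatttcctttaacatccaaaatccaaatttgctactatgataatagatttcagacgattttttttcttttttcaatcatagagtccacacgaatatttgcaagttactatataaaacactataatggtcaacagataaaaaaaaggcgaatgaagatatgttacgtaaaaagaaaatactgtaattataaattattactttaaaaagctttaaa
GSTU20: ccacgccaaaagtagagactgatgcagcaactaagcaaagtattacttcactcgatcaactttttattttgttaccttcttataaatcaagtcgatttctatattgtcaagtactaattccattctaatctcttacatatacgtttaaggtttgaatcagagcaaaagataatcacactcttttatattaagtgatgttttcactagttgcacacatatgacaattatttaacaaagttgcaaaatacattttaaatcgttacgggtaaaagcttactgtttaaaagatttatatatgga
GSTU1: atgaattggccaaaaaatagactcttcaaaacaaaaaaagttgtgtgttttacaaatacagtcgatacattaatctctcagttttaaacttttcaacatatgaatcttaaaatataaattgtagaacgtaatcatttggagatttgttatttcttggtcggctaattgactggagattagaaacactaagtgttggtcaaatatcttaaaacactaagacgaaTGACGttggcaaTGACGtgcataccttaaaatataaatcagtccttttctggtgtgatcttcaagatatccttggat
Counted back from the annotated start, GSTU1 held TGACG at -77 to -73 and again at -65 to -61, GSTU25 held it at -87 to -83, and GSTU26 held its reverse complement at -257 to -253. Neither GSTU19, which rose, nor GSTU20, which fell, held it in this window. In the row of GSTU1, the windows of GSTU5 and GSTU7 held 2 and 3 matches on either strand. Those of GSTU3 and GSTU6 held 1 each, and those of GSTU2 and GSTU4 held 0. On either strand, TGACG was in the window of 17 of the 41 members (41.5%) and of 22% of the 20487 tested coding genes. It was present in 9 of the 17 members that rose in Col_200 and in 8 of the other 24. The longer TGACGTCA, which contains TGACG, was upstream of 1 member and of 0.571% of all. The heat shock element GAANNTTC was upstream of 7 members (17.1%) and of 11.5% of all. A match is a string of letters in the window and no measured binding.

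**Figure D1:**
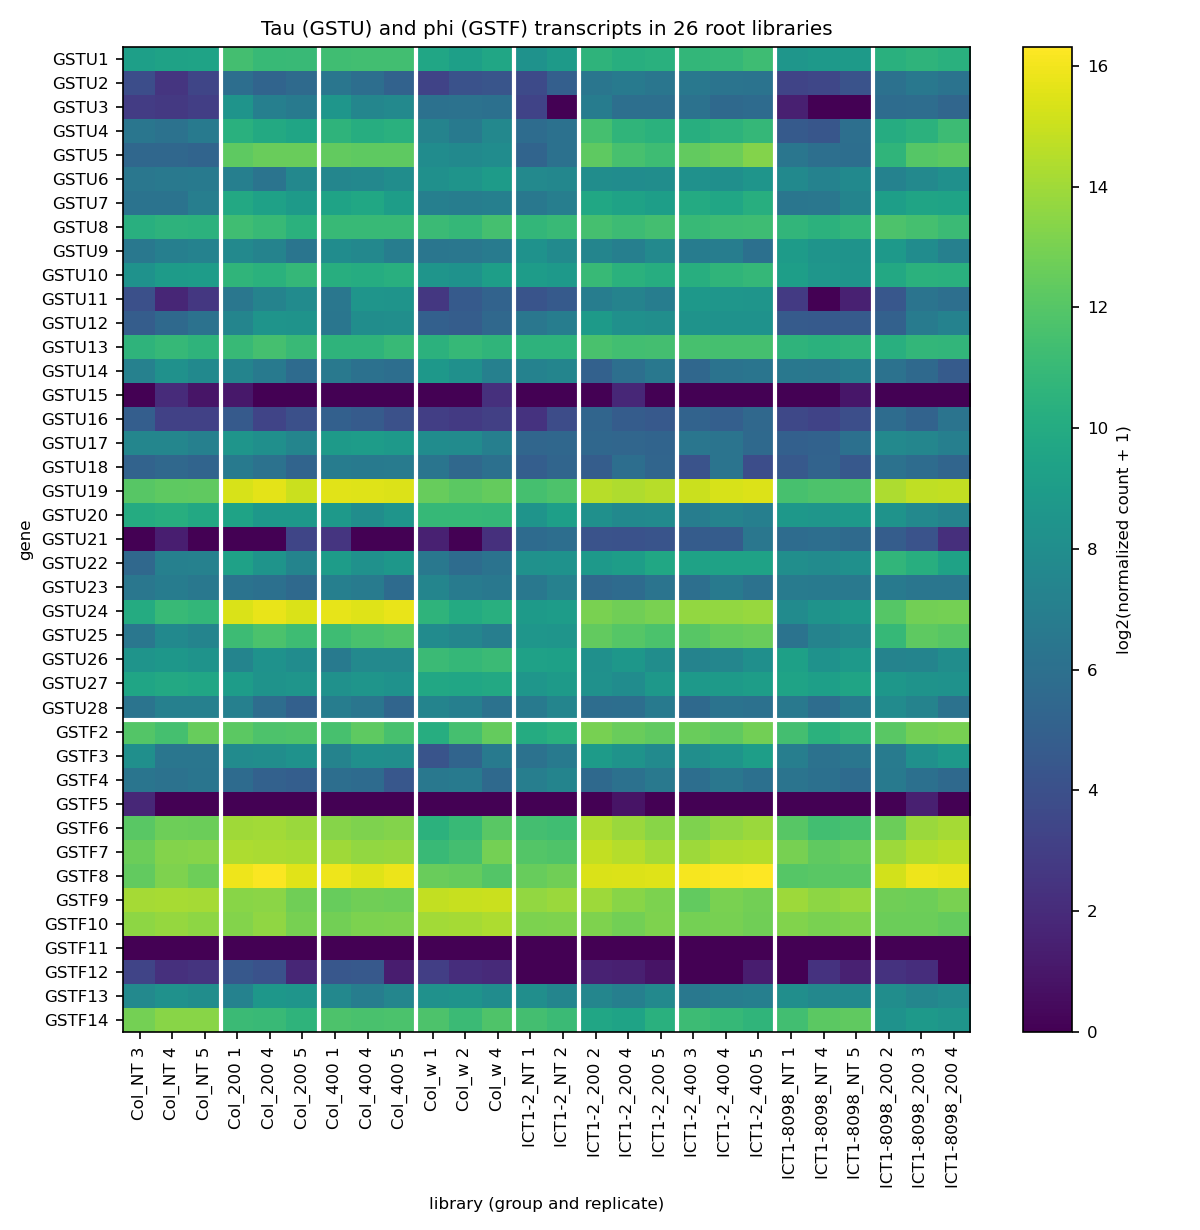
Each square is log2(normalized count + 1) of a gene (rows, tau above and phi below the white line) in a library (columns, white lines between the 9 groups). GSTU19, GSTU24 and GSTF8 are bright in the libraries with I3C, GSTF9 and GSTF10 are bright in all groups, and GSTF11 is at 0 in all 26 libraries.

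Without treatment, phi genes led. Per kb of exon, GSTF9 stood highest in Col_NT at 14687 ± 553 normalized counts (SD, n = 3), followed by GSTF10 at 11082 ± 1004, GSTF14 at 8194 ± 1586, GSTF7 at 7383 ± 1867 and GSTF6 at 4921 ± 995. GSTF9 was above GSTF10, and GSTF10 above GSTF14, by more than the sum of their SDs. GSTF14 and GSTF7 did not differ beyond their spread, nor did GSTF7 and GSTF6, nor GSTF6 and GSTU19, the highest tau gene at 4229 ± 339. GSTF6 is known to join glutathione to an indole intermediate of camalexin, a defence compound. At the other end of the tested genes, GSTU21 stood at 0.57 ± 0.987, GSTF12 at 5.26 ± 2.61, GSTU3 at 5.92 ± 0.781 and GSTU11 at 6.88 ± 6.02 per kb. Together the 41 genes took 0.635% ± 0.0707 of gene reads in Col_NT, and phi genes gave 67028 of their 81230 summed normalized counts.

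With 200 µM I3C in Col-0, 17 members rose and 5 fell, and 16 did not pass. That is 44.7% of the 38 tested as higher, against 15% of all tested genes, while 13.9% of all genes were lower. Of the 32 members that had 10 counts in all libraries, 14 rose and 5 fell. With libraries scaled by their total reads, which shifted the median change of all genes to -0.33, 16 members were called higher and 9 lower. Of all 21180 tested genes, 2066 were higher and 6778 lower under that scaling. Tau genes made up most of the rise: 14 of 27 tested rose and 2 fell, with a median log2 change of 0.72, against 3 that rose and 3 that fell of 11 phi genes, with a median of 0.17. The median of all tested genes was -0.03. The share of gene reads rose to 1.47% ± 0.157 (n = 3), with Col_NT from 0.553% to 0.679% and Col_200 from 1.29% to 1.58%. Summed normalized counts went from 81230 to 234615, and GSTF8, GSTU24 and GSTU19 gave 79.4% of the summed gains. Of the 5 root hair markers, 1 fell at 200 µM and at 400 µM (LRX1, adjusted p = 0.011 and 0.0455). Of the 4 endodermis markers tested, 0 passed at 200 µM and 1 fell at 400 µM (CASP1, adjusted p = 0.0415). The part of these cells in the results was not tested.

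**Figure D2:**
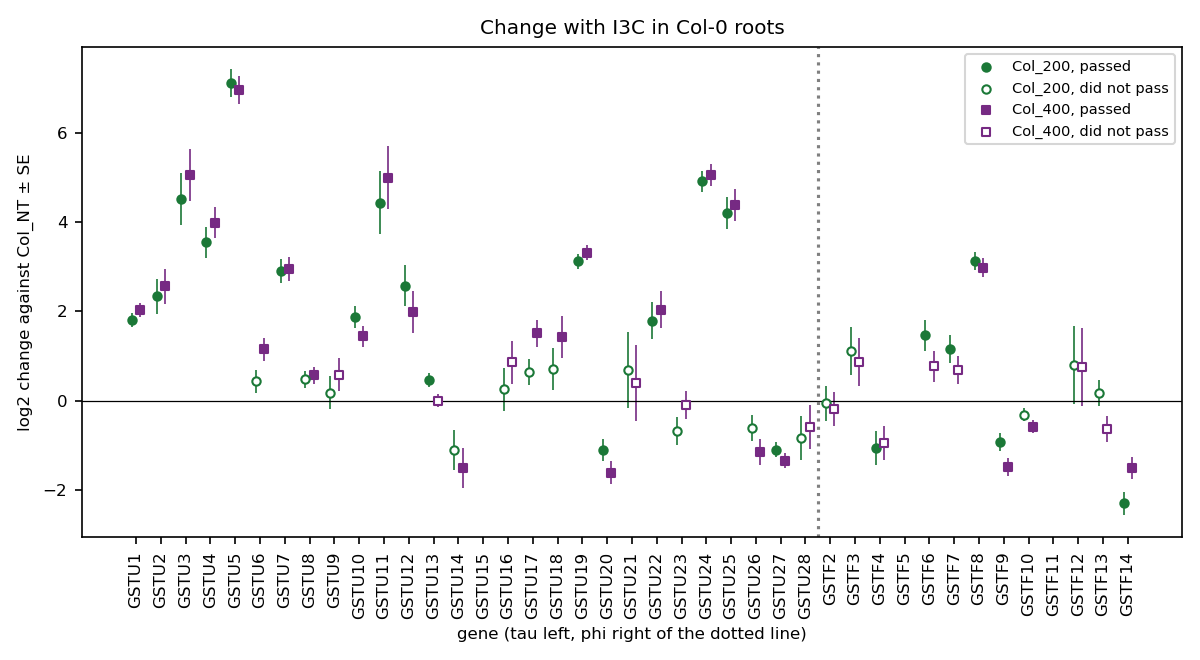
Points are the log2 change of each of the 38 tested members in Col_200 (circles) and Col_400 (squares) against Col_NT, bars are SE, filled points passed and open points did not. GSTU5 tops both doses at 7.12 and 6.96, and GSTF14 is lowest at 200 µM, at -2.30.

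GSTU5 (AT2G29450) had the largest rise. This tau gene is known for its induction by auxin and stress signals. Its normalized counts were 42.0, 41.7 and 36.9 in Col_NT, 4872, 6194 and 6192 in Col_200 and 5461, 5004 and 4951 in Col_400. All libraries with I3C were far above the controls, and the change was 7.12 ± 0.31 (log2 ± SE, 139-fold, adjusted p = 3.9e-14). GSTU24 (AT1G17170), an enzyme known for conjugating the explosive TNT, had 1060.4, 2001 and 1762 in Col_NT, 43603, 55084 and 42956 in Col_200 and 53183, 47867 and 54815 in Col_400. It rose 30.2-fold (4.92 ± 0.24, adjusted p = 1.88e-13) and reached the highest level per kb of the family in Col_200, 39312 ± 5681. Its neighbour GSTU25 (AT1G17180), which also acts on TNT, went from 87.3, 209 and 163 to 2292, 3372 and 2476 (4.21 ± 0.36, adjusted p = 2.84e-09).

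The other large rises spanned low and high basal levels. GSTF8 (AT2G47730), a phi gene long used as a marker of oxidative and chemical stress, had 5477, 9107 and 6822 in Col_NT and 60977, 75563 and 49620.2 in Col_200. Its change was 3.13 ± 0.21 (adjusted p = 4.58e-11). GSTU19 (AT1G78380), a highly expressed tau enzyme that is induced by herbicide safeners, had 4312, 4851 and 5047 and then 41154, 51538 and 33198, a change of 3.13 ± 0.17 (adjusted p = 1.33e-12). Both began among the more abundant members, and in neither gene did the groups overlap. By contrast GSTU3 went from 6.59, 5.41 and 7.03 to 346, 133 and 100.3 (4.52 ± 0.58, adjusted p = 1.75e-06) and GSTU11 from 14.8, 2.32 and 5.27 to 88.7, 157 and 237 (4.44 ± 0.71, adjusted p = 3.18e-05). Both started at 14.8 normalized counts or below, where the log2(value + 1) scale understates a change, and the GSTU11 controls spread widely. GSTU4 went from 82.4, 70.3 and 98.4 to 1297, 945 and 772 (3.55 ± 0.35, adjusted p = 3.54e-08).

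The row GSTU1 to GSTU7 moved almost as a whole. At 200 µM 6 of its 7 genes passed as higher, with GSTU6 the exception at 129, 77.5 and 199 against 86.5, 94.3 and 98.4 (log2 0.43, adjusted p = 0.234). At 400 µM all 7 passed, GSTU6 at 179, 198 and 251 (log2 1.15, adjusted p = 0.0014). The sizes ranged from 0.43 for GSTU6 to 7.12 for its neighbour GSTU5. GSTU1, GSTU2 and GSTU7 had log2 changes of 1.81, 2.34 and 2.91 at 200 µM. Of the pair GSTU11 and GSTU12, both rose, GSTU12 from 27.2, 46.4 and 68.5 to 169.8, 347 and 329 (log2 2.57).

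Other rows held neighbours of opposite sign. In GSTU24 to GSTU26 the third gene did not follow: GSTU26 had 342, 403 and 329 in Col_NT, 163, 312 and 243 in Col_200 and 98.3, 205 and 204 in Col_400. It did not pass at 200 µM (log2 -0.62, adjusted p = 0.117) and fell at 400 µM (log2 -1.15, adjusted p = 0.00348). In GSTU19 to GSTU23, GSTU20 (AT1G78370), known to bind the jasmonate enzyme FIN219, fell from 1060.4, 1217 and 931 to 704, 421 and 409.6 and 455, 256 and 356. No library with I3C reached the controls, and the changes were -1.10 ± 0.25 and -1.62 ± 0.25 (adjusted p = 0.00168 and 2.01e-05). In the same row GSTU22 rose at 200 µM (log2 1.79, adjusted p = 0.0019), GSTU23 did not pass (-0.68, adjusted p = 0.106) and GSTU21 had at most 9.67 normalized counts in any Col library.

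**Figure D3:**
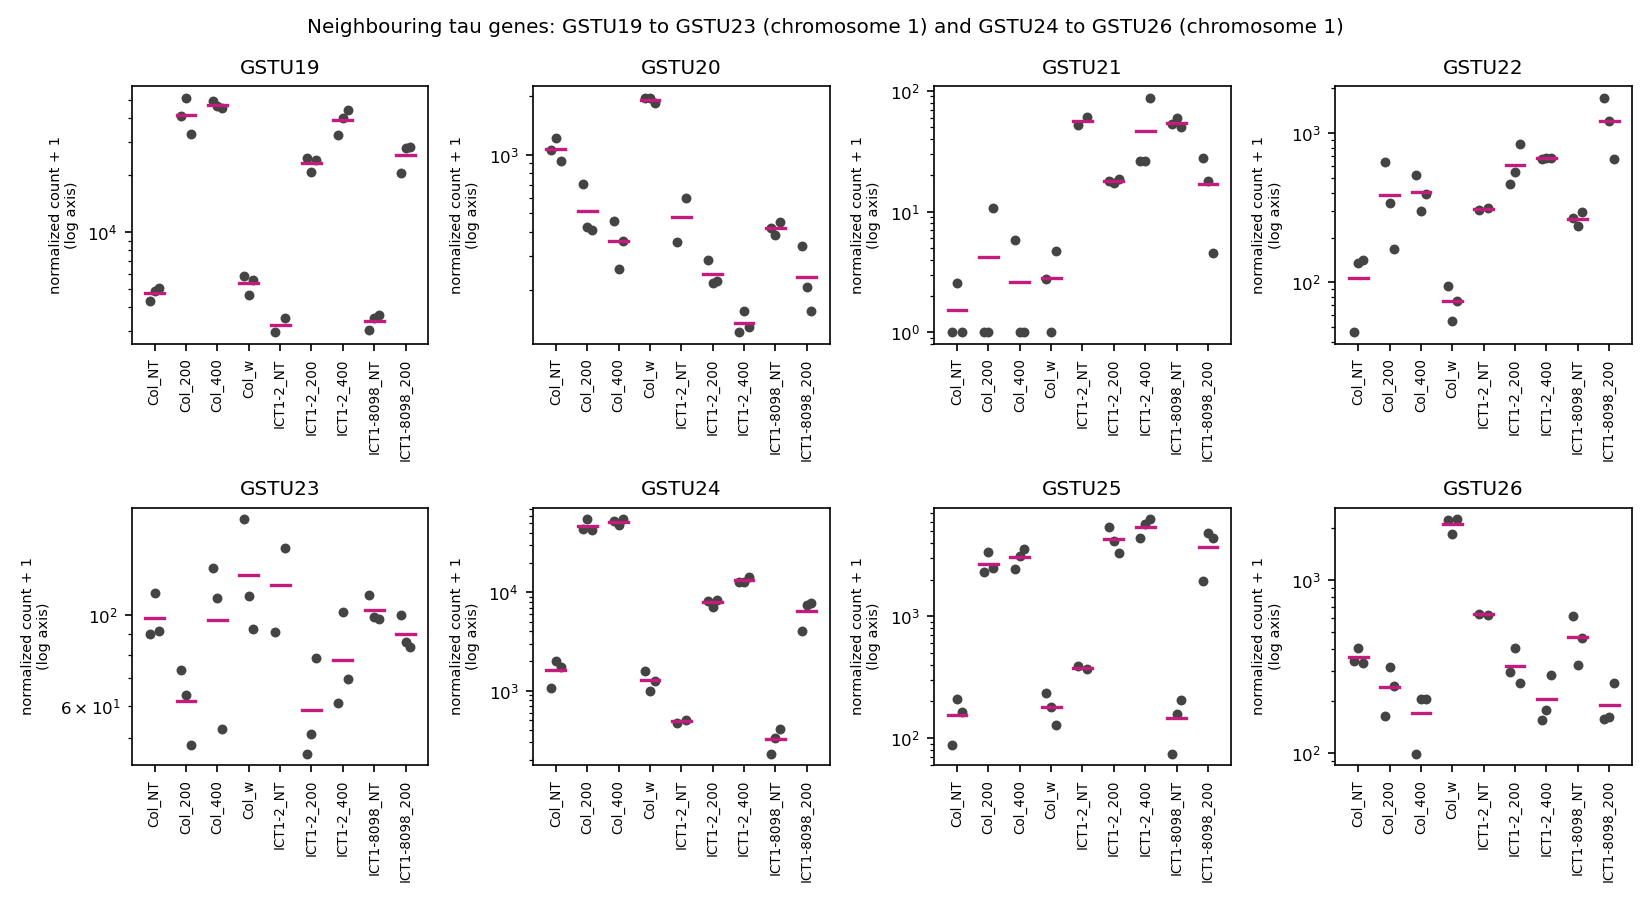
Each dot is a library's normalized count plus 1 on a log axis whose range differs between panels, and bars are group means, for the 8 genes of 2 tau rows across the 9 groups. GSTU19 and GSTU20 move in opposite directions with I3C, GSTU24 and GSTU25 rise while GSTU26 is highest after wounding, and GSTU21 is at most 9.67 in Col and at 48.9 to 59.2 in the untreated libraries of both other lines.

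The pair GSTU13 and GSTU14 differed as well. GSTU13, known for its part in indole glucosinolate metabolism, had 1581, 1924 and 1574 in Col_NT and 2015, 2881 and 2169 in Col_200 (log2 0.46, adjusted p = 0.0208). The call was lost without Col_NT replicate 3 (adjusted p = 0.0748), Col_NT replicate 5 (0.08) or Col_200 replicate 4 (0.164), and at 400 µM the levels were 1545, 1545 and 1998, a log2 change of 0.00. GSTU14 had 144, 305 and 209, then 163, 105 and 52.0 and 97.3, 68.3 and 58.8, and passed as lower at 400 µM (log2 -1.51, adjusted p = 0.0113). That call was lost without Col_NT replicate 4 (adjusted p = 0.0674) or Col_400 replicate 5 (0.0503). GSTU17 and GSTU18, which share 71 bases at their ends, passed as higher at 400 µM, GSTU17 at 469, 507 and 440.3 against 181, 181 and 138 (log2 1.51, adjusted p = 0.000345). GSTU18 had 113, 103 and 108 against 35.4, 45.6 and 37.8 (log2 1.43, adjusted p = 0.02), and did not pass without Col_NT replicate 3 (adjusted p = 0.0568) or replicate 5 (0.0529). Of GSTU15 and GSTU16, GSTU16 alone was tested, with 28.8, 7.73 and 7.90 in Col_NT and 23.8, 9.23 and 14.5 in Col_200, and did not pass at either dose (adjusted p = 0.732 and 0.169). It passed in ICT1-8098, from 10.8, 8.60 and 14.1 to 54.5, 34.9 and 75.5 (log2 2.16, adjusted p = 0.00148). GSTU16 also passed as higher in ICT1-2 at both doses (log2 1.78 at 200 µM and 2.13 at 400 µM). It had 4.29 and 12.6 in ICT1-2_NT, against means of 28.9 in ICT1-2_200 and 36.7 in ICT1-2_400. The call at 200 µM was lost without ICT1-2_200 replicate 2 (adjusted p = 0.0848). Without ICT1-2_NT replicate 1, the log2 changes were 1.10 at 200 µM and 1.45 at 400 µM.

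Among the abundant phi genes the directions split by row. GSTF6 went from 4475, 6569 and 6466 to 16198, 16636 and 14925 at 200 µM (log2 1.47, adjusted p = 0.00228). Its near-copy GSTF7 went from 6347, 10099.8 and 10419.8 to 19982, 19809 and 18792 (log2 1.16, adjusted p = 0.00782), and without Col_NT replicate 3 the adjusted p was 0.0545. At 400 µM neither passed (adjusted p = 0.0903 and 0.102), although all their Col_400 libraries were above those of Col_NT. At the end of that row GSTF4 fell from 80.7, 70.3 and 79.9 to 50.8, 33.2 and 27.8 (log2 -1.07, adjusted p = 0.0371). The GSTF4 call was lost without Col_NT replicate 3, 4 or 5 (adjusted p = 0.088, 0.0631 and 0.0889) and without Col_200 replicate 4 or 5 (0.103 and 0.136).

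GSTF9 (AT2G30860), the highest gene without treatment, fell from 17432, 18796 and 18098 to 10688, 11287 and 7143 and 5824, 6952 and 6754. The changes were -0.93 ± 0.20 and -1.48 ± 0.20 (adjusted p = 0.000939 and 2.78e-06). GSTF10 beside it had 11761, 13849 and 12025, then 10208, 12273 and 8089 at 200 µM (log2 -0.32, adjusted p = 0.106) and 7318, 8817 and 9024 at 400 µM, where it passed (-0.58, adjusted p = 0.00276). GSTF14 (AT1G49860) had the largest fall, from 7564, 10942 and 10699 to 2208, 2106 and 1582 and 3531, 3195 and 3345. Its changes were -2.30 ± 0.25 and -1.52 ± 0.25 (adjusted p = 1.45e-07 and 4.1e-05). Among tau genes outside rows, GSTU27 (AT3G43800) fell from 783, 931 and 805 to 506, 329 and 360.1 and 308, 365 and 317 (log2 -1.10 and -1.34, adjusted p = 2.48e-05 and 1.22e-06). GSTF2 (AT4G02520), known to bind auxin and camalexin, stood at 3942, 2914 and 5835 and 4749, 3429 and 3616 and did not pass (adjusted p = 0.926).

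Members outside the rows were 12, of which 11 were tested. At 200 µM 2 of them rose and 2 fell. GSTF8 and GSTU10 rose, GSTU10 from 319, 505 and 519 to 1621, 1362 and 1883 (log2 1.88, adjusted p = 1.96e-06), and GSTF14 and GSTU27 fell. GSTF3, the near-copy of GSTF2, stood at 146 and 271 on average and did not pass (log2 change 1.12, 95% interval 0.01 to 2.22, adjusted p = 0.124). Nor did GSTF13 (adjusted p = 0.708), GSTU9 (0.769), GSTU28 (0.216) or GSTF12 (0.541), and the 95% intervals of these 4 spanned 0. GSTF12 is TT19, which carries anthocyanins and seed coat pigments to the vacuole. It had 9.06, 3.86 and 4.39 in Col_NT, 21.6, 16.6 and 2.42 in Col_200 and 21.0, 22.3 and 1.43 in Col_400, and its groups overlapped. In ICT1-2_400 it was at 0 in 2 libraries and at 1.5 in the other, and 39 reads in Col_400 against 1 gave a ratio of 47.3 (exact 95% interval 8.01 to 1916, counting error only). GSTF12 reached 10 normalized counts in 4 libraries, all of them Col-0 with I3C, so it was tested only through the groups where it is high. Its call as lower in ICT1-2_400 is no support for a difference, and it was lost without Col_400 replicate 1 (adjusted p = 0.0636), Col_400 replicate 4 (0.0787) or ICT1-2_400 replicate 3 (0.0513).

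At 400 µM in Col-0, 18 members rose and 7 fell, against 18.4% and 17.4% of all tested genes. Tau genes gave 17 of the rises (median log2 change 1.44) and phi genes 1, GSTF8 at 60507, 47544 and 58074 (log2 2.98). Both doses were compared with the same Col_NT libraries. Compared directly, no member passed between 400 and 200 µM by limma, where 0.123% of all genes did. By voom 0 passed, and 6 members had an unadjusted p under 0.05. The 95% intervals of that difference stayed within 1 log2 unit of 0 for 15 members and reached past it for the other 23. For those 23, a dose difference past that size was not excluded. GSTU8, a tau gene with 1228, 1503 and 1420.2 in Col_NT and 2019, 2047 and 2057 in Col_400, passed at 400 µM (log2 0.57, adjusted p = 0.0223), and not without Col_NT replicate 3 (adjusted p = 0.0873) or Col_400 replicate 4 (0.0524) or 5 (0.0571).

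Set against basal level, the response reordered the family. Per kb of exon in Col-0, GSTU24 and GSTU19 stood above every phi gene at 200 µM, with 39312 ± 5681 and 37467 ± 8211 normalized counts, followed by GSTF8 at 25909.5 ± 5429.9. That order depends on exon length, which is 2395 bases for GSTF8, 1201 for GSTU24 and 1120 for GSTU19. As counts not divided by length, GSTF8 stood highest in Col_200 at 62053 ± 13005, against 47214 ± 6823 for GSTU24 and 41963 ± 9197 for GSTU19, with overlapping SDs. The SDs of GSTU24 and GSTU19 overlapped. GSTF9 went from 14687 to 7872 per kb. Per kb in ICT1-2_200 and ICT1-8098_200, GSTU19 ranked 1, at 20638 ± 1830.3 and 22848 ± 3867, with GSTF8 at 18733 ± 761 and 21392 ± 4784. GSTU24 ranked 7 in both, at 6559 ± 575 and 5349 ± 1702. As counts not divided by length, GSTF8 stood highest in both, at 44866 ± 1824 and 51234 ± 11457. Across the 38 tested members, Spearman's rho between the Col_NT level per kb and the log2 change at 200 µM was -0.309, and the Col_NT libraries enter both measures. With the level taken from ICT1-8098_NT, which shares no library with that comparison, it was -0.313. Between the Col_NT level and the change in the other lines, again with no shared library, rho was -0.243 in ICT1-8098_200 and -0.0758 in ICT1-2_200. These are descriptions across genes that share libraries and, in rows, sequence. GSTU19 and GSTF8 were both among the 7 highest members at the start and among the 8 largest rises, while GSTU6, GSTU16 and GSTU18 ranked 29 to 33 and did not pass at 200 µM.

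**Figure D4:**
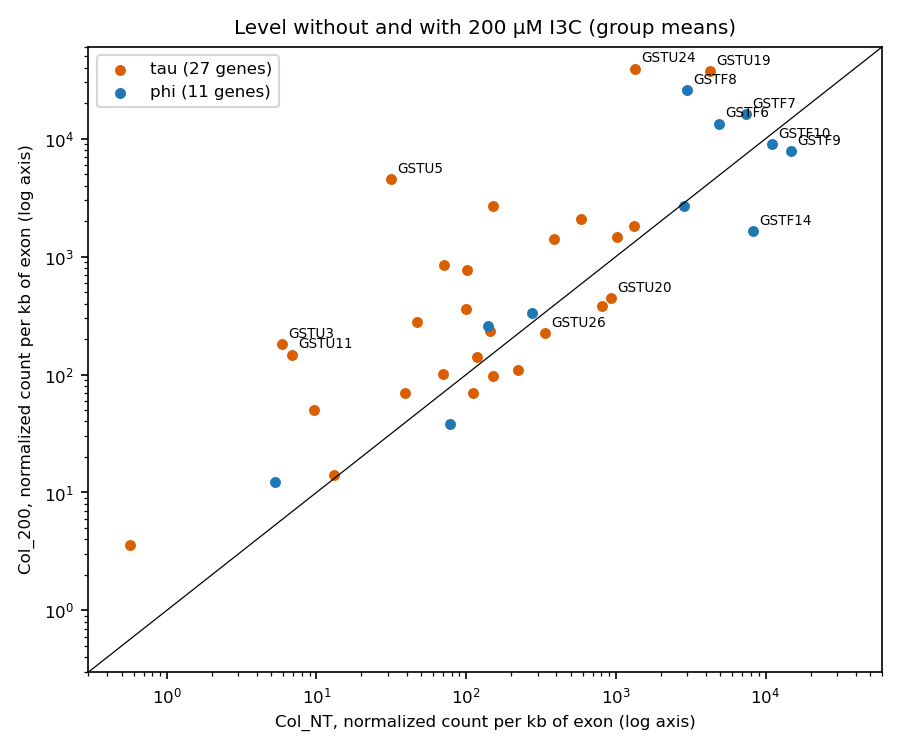
Each point is a tested member at its mean normalized count per kb of exon in Col_NT (x) and Col_200 (y), both log axes, with tau in orange, phi in blue and the line of equality in black. GSTU5, GSTU24, GSTU19 and GSTF8 lie well above the line, and GSTF14, GSTF9 and GSTU20 lie below it.

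The lines labelled as overexpressing S30 were each set against their own controls, so these comparisons share no library with that in Col-0. In the libraries labelled ICT1-2_200, 19 members rose and 5 fell, against 11.8% and 6.76% of all tested genes. In ICT1-8098_200, 20 rose and 6 fell, against 14.2% and 7.97%. The members that rose in all 3 lines at 200 µM were 15: GSTU1, GSTU2, GSTU3, GSTU4, GSTU5, GSTU7, GSTU10, GSTU11, GSTU12, GSTU19, GSTU24, GSTU25, GSTF6, GSTF7 and GSTF8. GSTU20 and GSTF14 fell in all 3. The share of all tested genes that passed in all 3 lines was not counted, so this overlap has no background beside it. In ICT1-2 at 400 µM 19 members rose and 6 fell (17.6% and 13.7% of all genes). With total-read scaling 19 rose and 11 fell, where 2149 of all 21180 tested genes were higher and 8529 lower. Of the 6 falls in the main fit, GSTU14 and GSTF13 did not pass without ICT1-2_400 replicate 3 (adjusted p = 0.157 and 0.123). Nor did GSTU9 without ICT1-2_400 replicate 5 (0.0514). In ICT1-2_400 2 of 5 root hair markers fell as well, LRX1 and EXPA18, and their part was not tested. GSTU21, GSTU28 and GSTF12 passed in none of the 5 I3C comparisons.

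In the leading genes all libraries with I3C were above the controls of their own line. GSTU5 had 36.4 and 67.0 in the libraries labelled ICT1-2_NT and 4889, 2973 and 2390.3 in ICT1-2_200 (log2 6.02), and 85.0, 61.9 and 58.3 in ICT1-8098_NT and 1619, 4178 and 4724 in ICT1-8098_200 (5.54). GSTF8 had 5866 and 6896 and then 43538, 44115 and 46945 in ICT1-2 (2.82), and 4197, 4525 and 4457 and then 38376, 60359 and 54967 in ICT1-8098 (3.52). GSTU19 had log2 changes of 2.85 and 2.90. GSTU4 rose by 4.95 ± 0.39 in ICT1-2 and 5.60 ± 0.35 in ICT1-8098. For GSTU3, 2 reads in ICT1-8098_NT and 162 in ICT1-8098_200 gave a ratio of 86.3, with an exact 95% interval of 23.5 to 719 that covers counting error only. GSTF14 fell from 2643, 4782 and 5046 to 315, 438 and 359 in ICT1-8098 (log2 -3.44, adjusted p = 2.92e-10).

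Some calls in ICT1-2, whose control group had 2 libraries, leaned on single libraries. Of the 24 at 200 µM, 15 held whichever library was left out and 9 did not. Among the genes above, GSTU20 (354 and 598 and then 285, 216 and 221, adjusted p = 0.0198) did not pass without ICT1-2_NT replicate 2 (adjusted p = 0.341) or ICT1-2_200 replicate 4 (0.0643) or 5 (0.0569). GSTU11 did not pass without ICT1-2_NT replicate 1 (0.134), ICT1-2_NT replicate 2 (0.0868) or ICT1-2_200 replicate 4 (0.0609). GSTU12 did not pass without ICT1-2_NT replicate 1 (0.173) or 2 (0.0673) or ICT1-2_200 replicate 2 (0.0991). GSTU2 did not pass without ICT1-2_NT replicate 1 (0.0617). In ICT1-8098, 24 of 26 calls held, and GSTU20 did not pass without ICT1-8098_200 replicate 4 (adjusted p = 0.0848) nor GSTU12 without ICT1-8098_200 replicate 3 (0.0509) or 4 (0.0706). Photosynthesis markers fell with I3C in the libraries labelled ICT1-2, 9 of 10 passing, while 0 of 10 passed in Col_200 or ICT1-8098_200. Their part in these results was not tested.

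Dose differences appeared in ICT1-2. Between 400 and 200 µM, 6 members were higher and 2 lower (5.22% and 2.8% of all genes). GSTU19 went from 24592, 20774 and 23978 to 32509.5, 40389.9 and 44365 (log2 0.75, adjusted p = 0.00722), and GSTF14 from 806, 705 and 1316 to 2349, 1969.8 and 1617 (1.11, adjusted p = 0.00746). None of these 8 calls held in every fit that left out a library. The count was 0 without ICT1-2_200 replicate 4 and 1 without ICT1-2_400 replicate 5. It was 4 without ICT1-2_200 replicate 2 or 5 and 5 without ICT1-2_400 replicate 4. Total-read scaling gave 3 higher and 3 lower, where 591 of all 21180 tested genes were higher and 1747 lower.

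Without I3C, members were more often lower than higher in the other lines. In the libraries labelled ICT1-2_NT, 4 were higher and 11 lower than in Col_NT, where 9.5% and 8.66% of all genes were. In ICT1-8098_NT, 4 were higher and 9 lower, where 6.01% and 6.17% were. Both were set against the same 3 Col_NT libraries, and at 200 µM 2 members were higher and 6 lower in ICT1-2 than in Col-0 (11.4% and 10.2% of all genes), and 5 higher and 10 lower in ICT1-8098 (12.5% and 11.8%). With total-read scaling those splits were 5 and 6, and 7 and 8. Of all 21180 tested genes, 3716 were then higher and 1299 lower in ICT1-2, and 4486 and 1351 in ICT1-8098. At 400 µM 3 members were higher and 7 lower in ICT1-2 (14.1% and 11.9% of all genes, without that scaling). The 15 calls in ICT1-2_NT were 7 without ICT1-2_NT replicate 1 and 8 without its replicate 2, and the 15 in ICT1-8098 at 200 µM were 7 without Col_200 replicate 4. GSTU24 was lower in all 5 of these comparisons. It had 468 and 506 in ICT1-2_NT (log2 -1.67, adjusted p = 9.14e-05) and 229, 329 and 407 in ICT1-8098_NT (-2.31, adjusted p = 1.54e-07), all below the lowest Col_NT library. With 200 µM I3C it reached 8234, 7081 and 8315 in ICT1-2 and 4076, 7393 and 7803 in ICT1-8098, also below all Col_200 libraries. Of the 10 photosynthesis markers, 8 passed as lower in ICT1-8098_NT and 0 in ICT1-2_NT, and at 200 µM 10 passed as lower than in Col_200 in both lines. Their part in these differences was not tested.

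GSTU21 (AT1G78360) reached 10 normalized counts in 13 libraries, none of them Col-0, so it was tested only through the lines where it is high. It is counted among the higher members above, and its levels are given here as a description. It had 0, 1.55 and 0 normalized counts in Col_NT, 51.4 and 59.2 in ICT1-2_NT and 52.5, 58.5 and 48.9 in ICT1-8098_NT. The 2 reads in Col_NT against 109 and 183 gave ratios of 101.2 (exact 95% interval 27.4 to 847) and 97.3 (26.6 to 809.8), for counting error only. With 200 µM I3C it had 16.9, 16.1 and 17.6 in ICT1-2 and 26.8, 17.0 and 3.54 in ICT1-8098, against 0, 0 and 9.67 in Col-0, where the groups of Col-0 and ICT1-8098 overlap. With 400 µM it had 25.4, 25.4 and 86.8 in ICT1-2 against 4.77, 0 and 0 in Col-0. GSTU17, whose loss is known to alter light and abscisic acid responses, had 181, 181 and 138 in Col_NT, 40.7 and 42.7 in ICT1-2_NT and 30.8, 34.4 and 64.8 in ICT1-8098_NT. It was lower in both (log2 -1.96 and -1.99, adjusted p = 0.000189 and 4.16e-05). With 200 µM I3C it stayed at 41.9, 41.6 and 36.8 in ICT1-2 and went to 203, 176 and 129.8 in ICT1-8098. GSTF14 was lower at 2761 and 2234 and 2643, 4782 and 5046 (-1.95 and -1.26, adjusted p = 2.3e-05 and 0.00103).

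GSTU20 was lower at 354 and 598 and 419, 383 and 449 (log2 -1.21 and -1.35, adjusted p = 0.00401 and 0.000546), and did not pass in ICT1-2 without its replicate 1 (adjusted p = 0.126). GSTU27 was lower in the libraries labelled ICT1-2_NT alone, at 378 and 481 (log2 -0.97, adjusted p = 0.000867), with 696, 592 and 748 in ICT1-8098_NT (adjusted p = 0.285). GSTU9 was higher in ICT1-8098_NT, at 499, 340.5 and 336 against 91.5, 129 and 148 (1.67, adjusted p = 0.00318), with 317 and 222 in ICT1-2_NT (adjusted p = 0.0587). Without any I3C, 5 of the 15 calls in ICT1-2 and 7 of the 13 in ICT1-8098 held whichever library was left out, those of GSTU17, GSTU24, GSTU27 and GSTF14 among the former.

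The interaction, a test of the difference between responses, passed for few members, and differences in the others were not excluded. Its unadjusted p was under 0.05 for 9 members in each line at 200 µM, and for 8 in ICT1-2 at 400 µM. With 200 µM the interaction passed for 1 member in ICT1-2 (0.68% of all genes) and for 0 in ICT1-8098 (0.264%), where voom also called 0. With 400 µM it passed for 3 in ICT1-2 (2.22%), and for 1 without ICT1-2_NT replicate 1 or 2 or ICT1-2_400 replicate 5. GSTF2 had 1069 and 1326 in ICT1-2_NT, 7904, 6061 and 5178 in ICT1-2_200 and 6270.0, 5149 and 7303 in ICT1-2_400, beside 3942, 2914 and 5835, 4749, 3429 and 3616 and 3046, 5013 and 2965 in Col-0. It rose in ICT1-2 from a lower start to levels above those of all Col_200 libraries, and the interactions were 2.46 ± 0.58 and 2.56 ± 0.58 (log2 ± SE, adjusted p = 0.0473 and 0.0192). In ICT1-8098 it went from 2821, 1374 and 1900.3 to 4529.6, 7173 and 7948, and the interaction did not pass (1.77 ± 0.54, adjusted p = 0.222). The call at 200 µM was lost without 10 of the 11 libraries, with adjusted p-values up to 0.216, and that at 400 µM without ICT1-2_NT replicate 1 (adjusted p = 0.119), ICT1-2_NT replicate 2 (0.0514) or ICT1-2_400 replicate 5 (0.0545).

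GSTU27 fell in Col-0, while in ICT1-2 it had 378 and 481 without and 433, 481 and 541 with 400 µM I3C (log2 0.18, adjusted p = 0.512; interaction 1.52 ± 0.26, adjusted p = 0.00241, kept in all 11 fits that left out a library). GSTU13 had 1511 and 1524 and then 3019, 2916 and 2957 in ICT1-2, beside a log2 change of 0.00 at 400 µM in Col-0 (interaction 0.97 ± 0.22, adjusted p = 0.0217). Without ICT1-2_NT replicate 1 the adjusted p was 0.107, and it was 0.0735 without its replicate 2, 0.0669 without Col_NT replicate 4, 0.0542 without Col_400 replicate 4 and 0.0506 without ICT1-2_400 replicate 5.

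**Figure D5:**
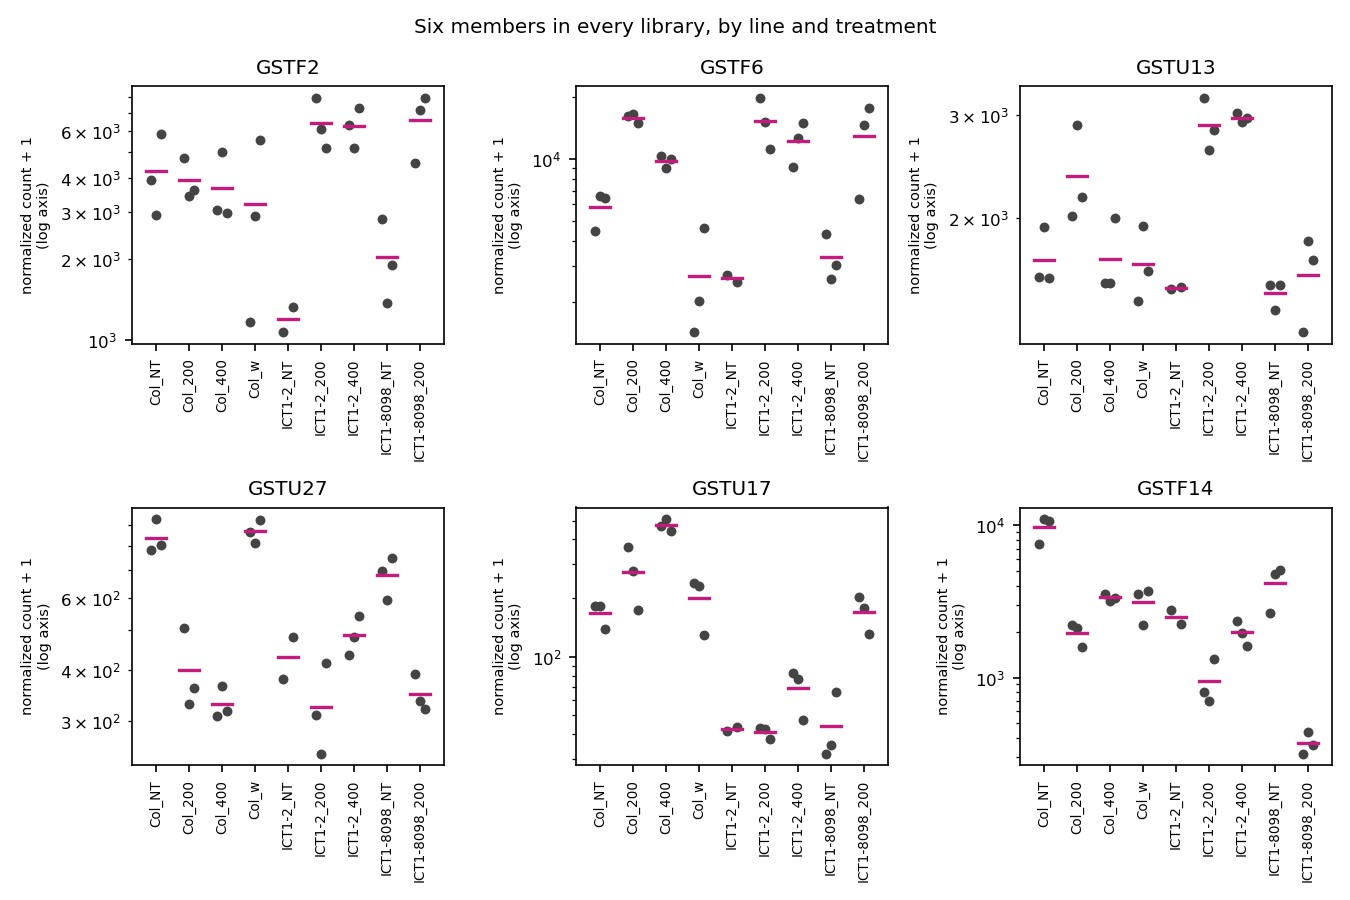
Dots are libraries and bars are group means of normalized count plus 1 on log axes whose ranges differ between panels, for 6 members across the 9 groups. GSTF2 is lowest in ICT1-2_NT, GSTU13 is high in ICT1-2 with I3C, and GSTU17 is low in ICT1-2 with and without it.

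After leaf wounding, GSTU26, GSTU3, GSTU5 and GSTU6 rose and GSTF14 fell in the roots. The control had DMSO for 2 h, while wounded plants waited 8 h, so wounding cannot be told apart from that difference. In all 7 members rose and 2 fell, against 1.8% and 0.67% of all tested genes. With total-read scaling 6 rose and 3 fell, where 407 of all 21180 tested genes were higher and 151 lower. GSTU26, which fell with 400 µM I3C against the same controls, went from 342, 403 and 329 to 2229.9, 1843 and 2246 (2.55 ± 0.29, adjusted p = 6.59e-06). GSTU3 had 68.2, 69.6 and 64.4 against 6.59, 5.41 and 7.03 (3.23 ± 0.58, adjusted p = 0.00162), GSTU5 had 238, 216 and 244 (2.51 ± 0.31, adjusted p = 1.91e-05) and GSTU6 had 296, 342 and 485 (1.97 ± 0.26, adjusted p = 4.45e-05). GSTF14 fell to 3514, 2195 and 3675 (log2 -1.65, adjusted p = 0.00023). None of these libraries overlapped Col_NT, and those 5 calls held whichever library was left out. GSTU24, GSTU19 and GSTF8 did not pass (adjusted p = 0.814, 0.883 and 0.459).

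The other 4 calls after wounding lay closer to the threshold, and the count fell from 9 to 5 without Col_NT replicate 4 or 5 or Col_w replicate 1. GSTF9 had 28674, 31319 and 32527 (log2 0.77, adjusted p = 0.039) and GSTF10 16980.5, 17359 and 20142 (0.53, adjusted p = 0.0487), all above their controls, and both calls were lost without any single library of Col_NT or Col_w, at adjusted p-values up to 0.138 and 0.221. GSTU8 had 2213, 1836 and 2898 (0.72, adjusted p = 0.041) and lost its call without Col_NT replicate 3, 4 or 5 (adjusted p = 0.143, 0.0809 and 0.0876) or Col_w replicate 1 or 4 (0.0761 and 0.247). GSTF7 had 2147, 2755 and 7537, a spread that overlaps Col_NT (-1.30, adjusted p = 0.0262). Its call was lost without Col_NT replicate 4 or 5 (adjusted p = 0.144 and 0.113) or Col_w replicate 1 or 2 (0.164 and 0.167).

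Genes around the conjugation step were read from the same fits. Of 9 genes for transport and breakdown of conjugates, 7 were tested and 5 rose in Col_200, with a list median of 1.92, where 15% of all tested genes were higher and 13.9% lower. The vacuolar conjugate pump ABCC2 went from 829 ± 109.6 to 5824 ± 1054 normalized counts (SD, n = 3; log2 2.81 ± 0.20, adjusted p = 1.28e-10), ABCC1 from 2055 ± 55.3 to 7808 ± 968 (1.92 ± 0.17) and ABCC3 from 415 ± 49.3 to 1859 ± 317 (2.16 ± 0.19). GGT1, a gamma-glutamyl transpeptidase that acts outside the cell, went from 239.7 ± 38.9 to 2152 ± 905 (3.08 ± 0.36, adjusted p = 3.6e-07), and GGP1, a cytosolic peptidase for conjugates, from 2065 ± 283 to 3316 ± 312 (0.69 ± 0.20, adjusted p = 0.0124). The same list had 5 rises in ICT1-2_200 and 4 in ICT1-8098_200.

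The other lists are short, and differences between lists were not tested. Of 4 genes for making and reducing glutathione, 1 rose in Col_200: glutathione reductase GR1 (AT3G24170), from 1332 ± 167 to 2670.0 ± 419 (log2 1.0 ± 0.14, adjusted p = 5.77e-06). GSH1, which makes gamma-glutamylcysteine, did not pass there (adjusted p = 0.385) and rose after wounding, from 2384 ± 499 to 4678 ± 572 (0.98 ± 0.17, adjusted p = 0.00126). Of 12 transferases of other classes 3 rose and 0 fell at 200 µM: dehydroascorbate reductase DHAR2 (log2 2.86 ± 0.18, adjusted p = 1.5e-11), GSTL1 (1.43 ± 0.32, adjusted p = 0.00148) and GSTZ1, an enzyme of tyrosine breakdown (0.76 ± 0.13, adjusted p = 8.88e-05). Of the 4 regulators of as-1-like elements 1 rose and 2 fell in Col_200. SCL14 rose from 601 ± 70.6 to 1282 ± 143 (1.09 ± 0.14, adjusted p = 1.25e-06), while TGA2 and TGA5 fell (log2 -0.52 ± 0.17 and -0.43 ± 0.16, adjusted p = 0.0275 and 0.042) and TGA6 did not pass (adjusted p = 0.708).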

How the data were processed

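The submitters' processing notes name TopHat2 2.1.0, HTSeq 0.6.1, DESeq2 1.18.1 and TAIR10, with no roles and no settings. The deposited table holds counts divided by a size factor, packed several libraries to a cell, and, for pairs of groups, the authors' log2 fold changes and adjusted p-values. It gave 26 of 27 libraries. Another 21 per-sample columns were not used, and all 21 repeat used columns exactly. Multiplied back by size factors, values were whole reads within 0.1.

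Genes with 10 normalized counts in 3 libraries were tested: 21180 of 34262. The test was limma 3.58.1 (R 4.3.3, eBayes with trend, two-sided) on log2(normalized count + 1), all 26 libraries in the fit with a mean per group, Benjamini-Hochberg over all tested genes. A fold is on that scale and understates the change of low genes. Intervals of read ratios and floors cover counting error only. Count tests (edgeR and DESeq2) on whole reads, planned as alternatives, were not run, and voom on recovered reads was added after the data were seen. The replicate numbers did not pair the libraries.

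All 41 members were accounted for. Values per library are given for the 5 highest per kb in Col_NT, the 8 largest rises, all falls in Col-0, all calls after wounding, up to 8 members by adjusted p between lines or in interactions, and the highest and lowest change of each row. Members, gene lists and tests were chosen with earlier results of these data known. Upstream windows were read with Python 3.11.15 from TAIR10.1, where 99.969% of 32548 shared genes have the same start. Scripts were tested on simulated data.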

Additional observations from a re-analysis of the deposited data

Results flagged for a closer look

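In 4 cases the response of a member to I3C differed between ICT1-2 and Col-0 by a test of the difference itself. GSTF2 had an interaction of 2.461 on the log2 scale at 200 µM (adjusted p = 0.0473) and of 2.563 at 400 µM (adjusted p = 0.0192). It had 1069 and 1326 normalized counts in ICT1-2_NT, below all 3 Col_NT libraries, and 60.5% of its exon bases overlap a gene on the other strand. GSTU27 had an interaction of 1.523 at 400 µM (adjusted p = 0.00241), with a start in ICT1-2_NT below that of Col_NT. GSTU13 had 0.9673 at 400 µM (adjusted p = 0.0217). All 4 rest on the same 2 libraries of ICT1-2_NT and share Col_NT, and they were tested by limma with Benjamini-Hochberg adjustment. Of the 10 photosynthesis markers, 4 passed as lower in the interaction at 200 µM and 0 in that at 400 µM, and their part in these differences was not tested.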

How the results depend on the processing

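Of the 173 counts of members called under another setting, 161 stayed within 1.5 times the value in the report and 12 did not, and no member that passed changed direction under any setting tried. The settings were other scalings, pseudocounts of 0.5 and 5, other filters, the compared groups alone, the replicate block, voom, the authors' deposited calls, and a log2 threshold of 1. Between 400 and 200 µM in ICT1-2 (8 members), the replicate block gave 3 and a log2 change over 1 gave 2. Between ICT1-2_200 and Col_200 (8), the compared groups alone gave 5, as did the log2 threshold. Between ICT1-8098_200 and Col_200 (15), they gave 3 and 8. The interaction of ICT1-2 with 200 µM (1) was 0 with a pseudocount of 0.5, with no filter, with the block and with voom. That with 400 µM (3) was 7 with the compared groups alone and 1 with the block. The causes were not tested. The replicate numbers were shared across groups, but libraries with the same number did not deviate together (median correlation 0.000846, and over 0.1 in 13 of 62 pairs), so the numbers were not taken to pair the libraries.

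Without each library in turn, counts ranged from 20 to 24 in Col_200, 23 to 26 in Col_400, 0 to 1 between these doses, 5 to 8 in Col_w, 17 to 24 in ICT1-2_200, 18 to 24 in ICT1-2_400, 0 to 6 between these doses, 24 to 29 in ICT1-8098_200, 7 to 14 in ICT1-2_NT and 9 to 12 in ICT1-8098_NT. Between lines with I3C they ranged from 7 to 11 (ICT1-2_200), 7 to 16 (ICT1-8098_200) and 7 to 9 (ICT1-2_400). The interactions ranged from 0 to 1, 1 to 4 and 0 to 1 (ICT1-2 at 200 and 400 µM, ICT1-8098). Where 1 library of ICT1-2_NT was left, it is assumed to vary like the other groups. Planned fits with edgeR and DESeq2 were not run. Depth limits GSTU3, GSTU11, GSTU21 and GSTF12, whose control libraries held few reads.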
